A study of Mus musculus with 41 samples.

Results

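Mouse chromosome 8 was examined for gains and losses of DNA in 14 mesothelioma tumors. All bins of the chromosome were taken, 6164 of the 122257 bins (5.04%) into which the authors had divided the genome, each 20 kb long. Each tumor was centred on its median autosomal bin, so that 0 is the level of the bulk of its autosomes. The chromosome was selected on the RNA of cell lines, in which its genes were higher in the BNC lines JB81 and JB91 than in NC lines. The DNA came from tumors and not from these lines, and DNA of the lines was not analysed here.

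By the labels the DNA samples are 10 BNC tumors (genotype Bap1-/-;Nf2-/-;Cdkn2ab-/-) and 4 NC tumors (genotype Nf2-/-;Cdkn2ab-/-). The RNA samples are 5 BNC and 4 NC tumors, and 3 BNC and 3 NC cell lines. The mice had a mixed genetic background of several inbred strains. Their floxed alleles were deleted in young adults by an adenovirus injected into the chest cavity, after treatment with cyclosporine A. The virus carried Cre under the ubiquitous CMV promoter, so cells other than mesothelial cells could also recombine. By the paper, Ink4a and Ink4b of the Cdkn2ab mice were already deleted in the germline, and Arf was the conditional part of that locus. The columns of the DNA table carry a tumor code and not a genotype, so BNC and NC tumors were not compared, and 2 of them (B20 and B21) share an animal number, which leaves 13 animal numbers. DNA was isolated from frozen tumor pieces with whatever normal cells they held.

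Tumors gain or lose DNA as whole chromosomes, as arms, or as short segments, and the depth of sequencing over a bin follows the number of copies. Normal cells within a tumor pull a change toward 0. Mouse chromosome 8 carries genes for the insulin receptor (Insr), the type IV collagen chains of basement membrane (Col4a1 and Col4a2), E-cadherin (Cdh1), the genome-organizing factor Ctcf, and tandem families such as the defensins, which are antimicrobial peptides, and the carboxylesterases, which cleave esters of lipids and drugs.

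The clearest difference among tumors on this chromosome lay in the carboxylesterase cluster, and the upstream sequence of Ces1c, inside the interval that lacked reads, is shown with those of its neighbors Ces1b and Ces1e, outside it. Each is the 250 bases before the gene's start from RefSeq on GRCm38.p6, minus strand, 5′ to 3′. The positions are chr8:93079941-93080190 for Ces1b, chr8:93131284-93131533 for Ces1c, and chr8:93229620-93229869 for Ces1e.
Ces1b: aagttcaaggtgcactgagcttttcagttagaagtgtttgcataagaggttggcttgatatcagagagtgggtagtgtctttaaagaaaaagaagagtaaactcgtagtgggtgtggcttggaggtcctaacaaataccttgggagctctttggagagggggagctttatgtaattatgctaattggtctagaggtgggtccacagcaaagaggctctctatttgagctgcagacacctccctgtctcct
Ces1c: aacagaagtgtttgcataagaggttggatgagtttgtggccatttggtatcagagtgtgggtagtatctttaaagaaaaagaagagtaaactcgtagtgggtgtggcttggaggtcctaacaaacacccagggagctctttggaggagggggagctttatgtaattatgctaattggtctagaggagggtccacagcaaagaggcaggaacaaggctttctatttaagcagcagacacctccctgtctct
Ces1e: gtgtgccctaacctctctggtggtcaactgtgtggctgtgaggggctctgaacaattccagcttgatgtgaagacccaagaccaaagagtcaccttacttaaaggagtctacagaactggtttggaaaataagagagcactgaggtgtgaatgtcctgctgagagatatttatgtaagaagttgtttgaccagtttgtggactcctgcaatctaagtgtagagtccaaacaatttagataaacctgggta
The longest stretch that Ces1b and Ces1c share is 58 bases, and the longest that Ces1c and Ces1e share is 9 bases. Reads from copies that are alike in sequence can be placed on the wrong copy or lost. Whether this affected the values over this cluster was not tested. The letters TATAAA, searched on both strands, are in none of these windows and in 12.4% of the 32851 promoters of the same length.

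Chromosome 8 as a whole was close to the other autosomes in every tumor. Its level, the median log2 ratio over its bins, was lowest in B31 at -0.016, had a median of -0.010 over the 14 tumors, and was highest in B19 at 0.0036. B19 was the single tumor above 0, and 13 of 14 lay below it. For scale, 1 extra copy in every cell of a diploid tumor would give 0.58 and 1 extra copy in 10% of cells would give 0.070, by arithmetic. On the X chromosome 6 tumors lay between -1.05 and -0.98 and the other 8 between -0.016 and 0.030. A step of about 1 is therefore visible in these files. The X values do not show whether a smaller step, or one in part of the cells, would be visible. No tumor had a chromosome 8 level of the size of 1 extra copy in 5% of cells, 0.036.

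The levels lay to one side of 0 (exact sign-flip permutation test over 14 tumors, two-sided, p = 0.000366). Against the mean of the other autosomes of the same tumor, the level of chromosome 8 was between -0.027 and 0.0029, with a median of -0.011 (same exact permutation test, p = 0.000244, below 0 in 13 of 14 tumors). Against the median of the other autosomes, a comparison chosen after seeing the data, it was between -0.014 and 0.0040, with a median of -0.0094 (same exact permutation test, p = 0.000854, below 0 in 12 of 14 tumors). Chromosomes 4, 5, 7, 10, and 11 lay below 0 in all 14 tumors, and chromosome 11 had a lower median than chromosome 8, at -0.013. With the mean autosomal bin as the centre, the median level was -0.0020 and the same exact permutation test gave p = 0.155. An offset of chromosome 8 that all 14 columns share through the reference or the processing would also give small p-values. These tests cannot tell such an offset from a change in the tumors.

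The level differed little from tumor to tumor. It spanned 0.020 between the lowest and the highest tumor, which placed chromosome 8 at rank 10 of 19 autosomes by span, counted from the smallest. Chromosome 19 spanned 0.33 and chromosome 17 spanned 0.18. Among the other autosomes, 5 of 252 levels were more than 0.1 from 0, all of them on chromosomes 17 and 19, with the highest in B28 at 0.30 on chromosome 19. In the same tumor chromosome 8 lay at -0.011.

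**Figure D1:**
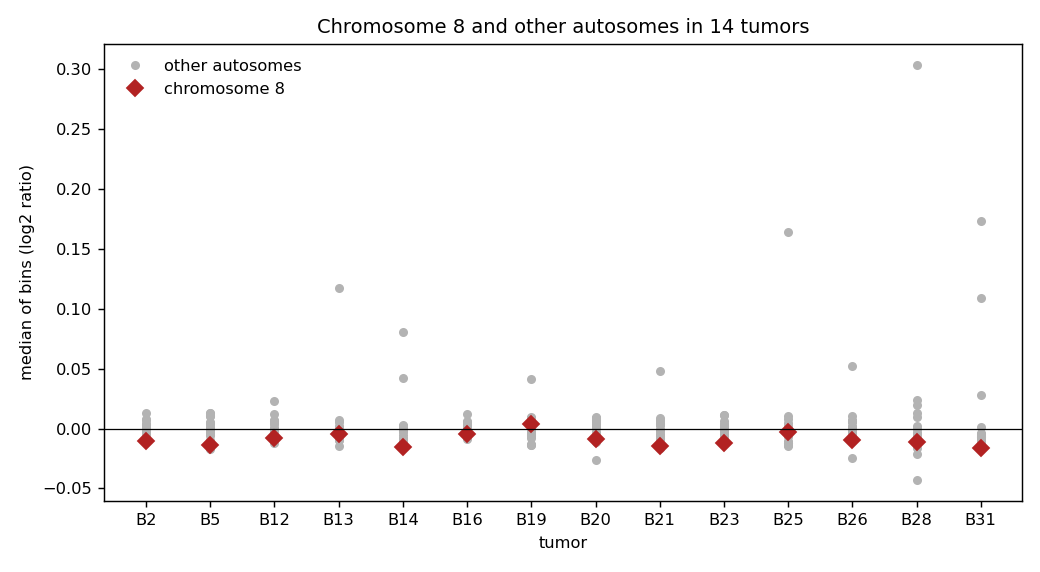
Median log2 ratio of each of the 19 autosomes (vertical axis) in each of the 14 tumors (horizontal axis), with chromosome 8 as red diamonds and the other autosomes as gray points. Chromosome 8 lies between -0.016 and 0.0036, while chromosome 19 reaches 0.30 in B28.

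No 10-Mb window of chromosome 8 departed from the spread of such windows on the autosomes. The 13 windows gave 182 values over the 14 tumors, from -0.045 in B14 (window 8, 70 to 80 Mb) to 0.033 in B19 (window 6, 50 to 60 Mb), and 0 of them lay outside the central 95% of all 249 autosomal windows of the same tumor. These limits include each tumor's other changed chromosomes. The upper limit was 0.16 in B25 and 0.14 in B31, and from 0.029 in B12 to 0.056 in B14 among the others. The lower limit was from -0.055 in B5 to -0.037 in B16. Window 8 came close to it in B14, at -0.0453 against -0.0467, and in B23, at -0.0408 against -0.0428. The SD over chromosome 8 windows was between 0.0077 and 0.017 in the 14 tumors, and the SD over all autosomal windows was between 0.017 and 0.053.

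The last windows of the chromosome were low together. Window 12 (110 to 120 Mb) was between -0.037 in B28 and -0.011 in B20, with a median of -0.021. Window 13 (120 Mb to the end) was between -0.034 in B28 and -0.0025 in B12, with a median of -0.024. These 2 windows were below 0 in every tumor, which is 15.4% of the windows of chromosome 8, and 11.6% of all autosomal windows were. Their GC content was the highest of the 13 windows, 45.3% and 47.7%, and that of window 6 the lowest, 37.4%. Over the 13 windows, which share the same libraries, Pearson's r between GC content and the median level was -0.77 and Spearman's rho was -0.65. The part of base composition in the low windows was not tested beyond this.

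**Figure D2:**
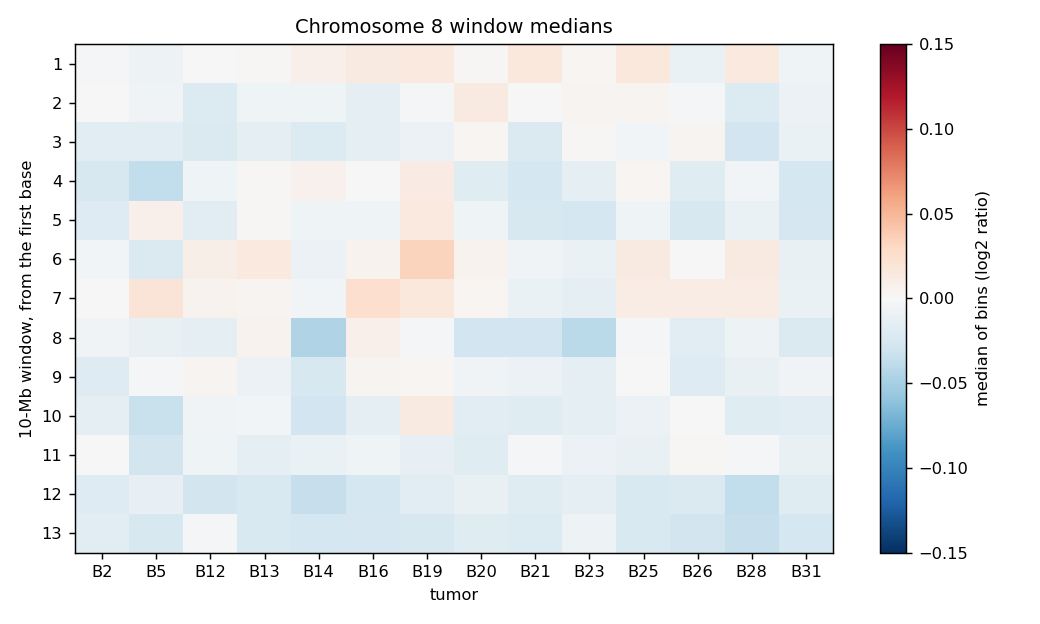
Median log2 ratio of each 10-Mb window of chromosome 8 (vertical axis, numbered from the first base) in each of the 14 tumors (horizontal axis), in color from -0.15 (blue) to 0.15 (red). The values run from -0.045 to 0.033, and windows 12 and 13 are below 0 in all tumors.

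Each tumor's chromosome 8 was divided into segments of constant level, with 500 kb as the shortest segment. In 12 of 14 tumors no breakpoint was found. The other 2 tumors (14.3%) each had a single low segment with 2 breakpoints, so there were 4 in all. Over all autosomes, 40.2% of the 266 pairs of a tumor and an autosome had a breakpoint, with 67 breakpoints on chromosome 4 and 43 on chromosome 7. Many of these lay at the same or nearby positions in several tumors, such as chr4:112040001 in B12, B13, B19, B21, B23, and B28. Others were small steps, such as -0.034 on chromosome 2 in B2. The 266 pairs are therefore not all separate events, and 40.2% is not a rate of rearrangement in the tumors.

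The low segment of B5 was 5.74 Mb long, from chr8:97400001 to 103140000. It lay at -0.13 in B5, and in the other 13 tumors between -0.0048 in B28 and 0.025 in B31. The ends of the segment were fitted to B5's own values. That B5 is the lowest tumor over these bins therefore follows in part from how they were chosen. The segment holds 287 bins and 2 protein-coding genes, Cdh8 and Cdh11, which encode cadherins that join neighboring cells. The nearest gene to its left end was Got2, a mitochondrial aminotransferase, 1511454 bases away. The GC content of its bins was 37.4%, as low as in the lowest 10-Mb window. B5 had such segments on other chromosomes too. Of its segments over the autosomes, 8 on 7 autosomes held at least 100 bins and lay between -0.25 and -0.1, limits chosen after seeing the data, and among the other 13 tumors there was 1, in B31. B5 also had the most breakpoints, 38 against 11 to 26 in the others, and the highest bin noise, an SD of 0.15 on chromosome 8. The part of noise in these segments was not tested. With the penalty for a breakpoint doubled, neither this segment nor that of B14 was found.

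The low segment of B14 was 1.2 Mb long, from chr8:70940001 to 72140000, and was shared in part by other tumors. It lay at -0.24 in B14, -0.19 in B23, -0.14 in B26, -0.14 in B21, and -0.14 in B20. It was -0.12 in B2, -0.11 in B31, -0.10 in B12, -0.087 in B5, -0.086 in B13, and -0.085 in B28. The highest were B25 at -0.039, B19 at -0.0071, and B16 at -0.0030. All 14 tumors were thus below 0, and B14, to whose values the ends were fitted, was the lowest of a graded series of values. The segment's bins had a GC content of 46.9%. Inside the segment lie chr8:71060001-71080000, chr8:71100001-71120000, and chr8:72020001-72060000, short intervals that differed among tumors by the rule given below. B14, B20, B21, and B23 were the lowest tumors in each of these intervals. When each bin's median over the tumors was subtracted, the segment was no longer found and 2 breakpoints remained, both in B5. With 2 Mb (100 bins) as the shortest segment, the low segment of B14 ran instead from chr8:68700001 to 72660000 and lay at -0.098, so its ends and level depended on that setting. As first found, the segment holds 52 bins and 37 protein-coding genes, and its right end lies in Tpm4, which encodes a tropomyosin of the actin cytoskeleton. Its left end is 22472 bases from Map1s, which encodes a microtubule-associated protein. Jak3, a kinase of cytokine receptors, lies inside it (chr8:71676296-71690575) and had the lowest median of the 33 genes examined, -0.10, from -0.21 in B26 to 0.0079 in B16.

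**Figure D3:**
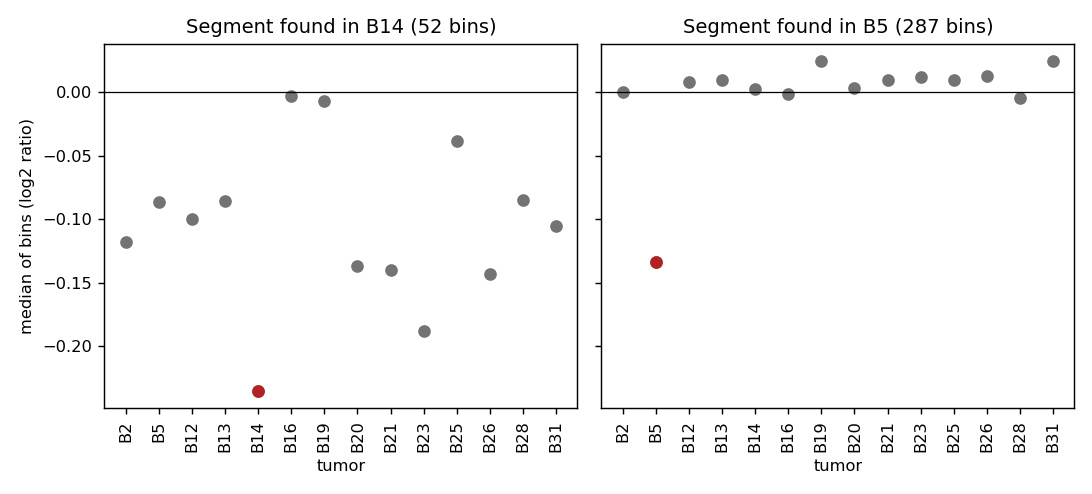
Median log2 ratio (vertical axis) of the bins of each low segment in all 14 tumors (horizontal axis), with the tumor in which the segment was found in red. The ends of each segment were fitted to the tumor in red. B5 is at -0.13 in the right panel, and in the left panel B14 at -0.24 is followed by B23 at -0.19.

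Genes of signaling, matrix, transcription, and genome maintenance on the chromosome were then examined. For each of 33 genes the median of the bins on it and up to 5 bins on each side was taken, and 0 of 33 were over 0.5 from 0 in any tumor. By the same rule 1.14% of the 20422 protein-coding genes of the autosomes were, so a count of 0 among 33 genes is near that share. Over all of them the values ran from -0.21 to 0.14. The 10 receptor and signaling genes had a median of -0.023, and Fgfr1, a receptor of fibroblast growth factors (chr8:25513654-25575718), lay between -0.093 in B28 and 0.00059 in B13. Insr (chr8:3122061-3279617) lay between -0.096 in B28 and 0.034 in B5. The collagen gene Col4a1 (chr8:11198423-11312826) lay between -0.072 in B21 and 0.064 in B20.

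The 8 transcription factor genes had the lowest list median, -0.039. Junb, a subunit of the AP-1 factor (chr8:84974484-84978718), had a median of -0.096, with B14 lowest at -0.16 and B28 highest at 0.034. The 8 genes of tumor suppression or genome maintenance had a median of -0.027. Cdh1 (chr8:106603351-106670246) was between -0.11 in B31 and 0.034 in B14, and Ctcf (chr8:105636568-105682922) between -0.068 in B26 and 0.073 in B14. Brd7, a bromodomain subunit of a chromatin remodeler (chr8:88331039-88362194), was between -0.15 in B23 and 0.052 in B16. Il15, which encodes a cytokine of lymphocytes, had a median of 0.032.

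Short intervals differed among tumors far more than the chromosome did. Of the 6163 chromosome 8 bins with values, 18 bins (0.292%) in 12 intervals were over 1 from 0, or without reads, in at least 2 tumors and within 0.5 of 0 in at least 2 others. Over all autosomes the share was 0.291%. With 1 tumor enough on each side, 35 bins of the chromosome met the rule. Of these, 16 bins were off in a single tumor, 8 of them in B5, which also had the highest bin noise.

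The longest of these intervals was chr8:93120001-93200000, 4 bins with all of Ces1d and with the promoter and first part of Ces1c. B14 and B21 had no reads in any of its 4 bins. B20 and B23 had none in 3 bins, and their remaining bin lay at -6.86 and -7.14. In 6 tumors the mean of the bins was near -1, at -1.10 in B16, -1.0 in B2, -1.0 in B26, -0.97 in B25, -0.96 in B5, and -0.85 in B31. The other 4 tumors were near 0, at -0.034 in B12, -0.025 in B28, -0.019 in B13, and -0.0024 in B19. The tumors thus fell at 3 levels that did not overlap. The rule that selected the interval asks for tumors far from 0 and tumors near 0, so part of this gap is built in. By arithmetic 0, 1, and 2 copies would give such levels. Copy number was not tested, and whether the values were divided by the reference could not be settled. The bins on either side were lower in part of the tumors. The bin to the right lay at -0.93 in B20, -0.62 in B14, -0.58 in B23, and -0.46 in B21, and the bin to the left at -0.53 in B20, -0.47 in B23, and -0.37 in B14. The next bin but one to the right, which holds the Ces1e promoter, was between -0.17 and 0.17 in all 14 tumors.

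A shorter interval without an annotated gene, chr8:74000001-74040000, was low in the same 4 tumors. Its right bin lay at -4.90 in B14, -4.04 in B20, -3.51 in B21, and -3.90 in B23, and its left bin had no reads in any of them. Means near -1 were seen in B5 at -1.14, B12 at -1.01, B31 at -0.90, B2 at -0.88, and B26 at -0.73. The remaining 5 tumors (B13, B16, B19, B25, and B28) lay between -0.065 and 0.11. B12, B16, and B25 thus had different levels at the 2 intervals.

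Other intervals set other tumors apart. At chr8:19340001-19380000, also without an annotated gene, B12 at -4.04 and B2 at -3.73 were lowest, and B13, B14, B16, B19, B25, and B28 were between -0.049 and 0.14. At chr8:19940001-19960000 and chr8:20980001-21000000 the tumors B2 and B12 were instead the highest, at 1.51 and 1.32 in the first and 1.27 and 1.24 in the second. At chr8:59100001-59120000 the values were 1.02 in B16, 1.01 in B19, and 0.89 in B13, and 0.48 or lower in the other 11. A bin in Adamts18, a secreted metalloproteinase gene (chr8:113780001-113800000), lay at -2.94 in B12. In 9 tumors it was between -1.20 in B14 and -0.67 in B16. In the other 4 (B25, B26, B28, and B31) it was between -0.23 and -0.031.

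Over the 18 bins, B20 and B23 were within 0.5 of each other in 18 and B13 and B19 in 17. B20 and B21, which share an animal number, were within 0.5 of each other in 16 of 18. The methods name normal tail DNA as the reference and do not say whether it came from the same animal. The X chromosome lay between -1.05 and -0.98 in 6 tumors and between -0.016 and 0.030 in 8. Whether a difference was present in the animal's germline or arose in the tumor was not tested.

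**Figure D4:**
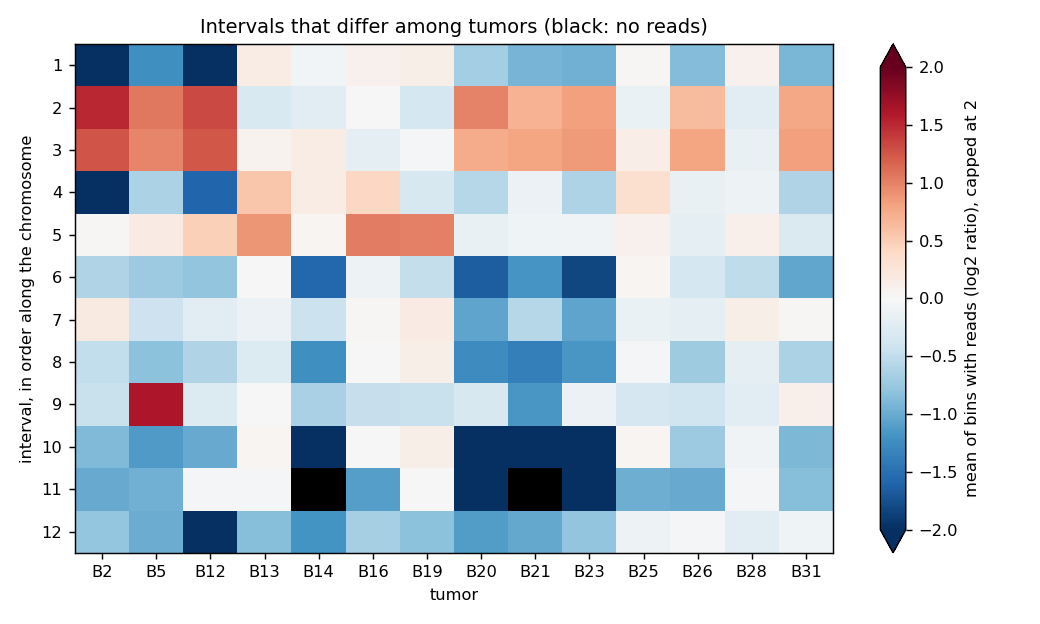
Mean log2 ratio of the bins with reads (color, capped at -2 and 2) in the 12 intervals that differed among tumors (vertical axis, in order along the chromosome) for the 14 tumors (horizontal axis), with black where no bin had reads. In interval 11, which holds Ces1d, B14 and B21 are black and B20 and B23 are at -6.86 and -7.14.

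Some bins were off in the typical tumor. A median over the tumors of more than 0.5 from 0 was found in 29 bins (0.471%) of the chromosome and in 0.361% of all autosomal bins. Of the 29 bins, 12 were among the 18 that differed among tumors, and in 10 no tumor was within 0.5 of 0. The bin at chr8:95300001-95320000, over Cngb1, a cation channel subunit, and Tepp, was between 1.76 and 2.08. The bin at chr8:81520001-81540000, inside the lipid phosphatase gene Inpp4b, was between 1.04 and 1.39. In the alpha-defensin cluster, chr8:21500001-21560000 with Defa20 and Defa32 was between -4.95 and -2.80 over the bins with reads. No tumor was near 0 at these 3 places. Whether the deposited values were divided by the reference in such bins could not be settled from the files.

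The RNA that led to the choice of this chromosome was set beside the DNA, with no test because it made the choice. Over 443 genes of chromosome 8, JB91 had a median log2 RNA difference of 0.57 from the NC mean, JB81 one of 0.54, and JB97 one of 0.19. Each NC line, against the mean of the other NC lines, was at -0.031 in JB84, -0.090 in JB87, and 0.091 in JB93. The difference between BNC and NC means was above 0 in 12 of 13 windows, from -0.28 in window 4 to 0.70 in window 2. Over all autosomes 57.4% of the 249 windows with at least 5 genes were above 0, and the median over all 7711 genes was 0.074. In window 2 the DNA of the tumors was between -0.021 and 0.013, and in window 4 between -0.036 and 0.013. The tumors are not the source of these values of the lines, and copy number of the lines cannot be read from them.

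**Figure D5:**
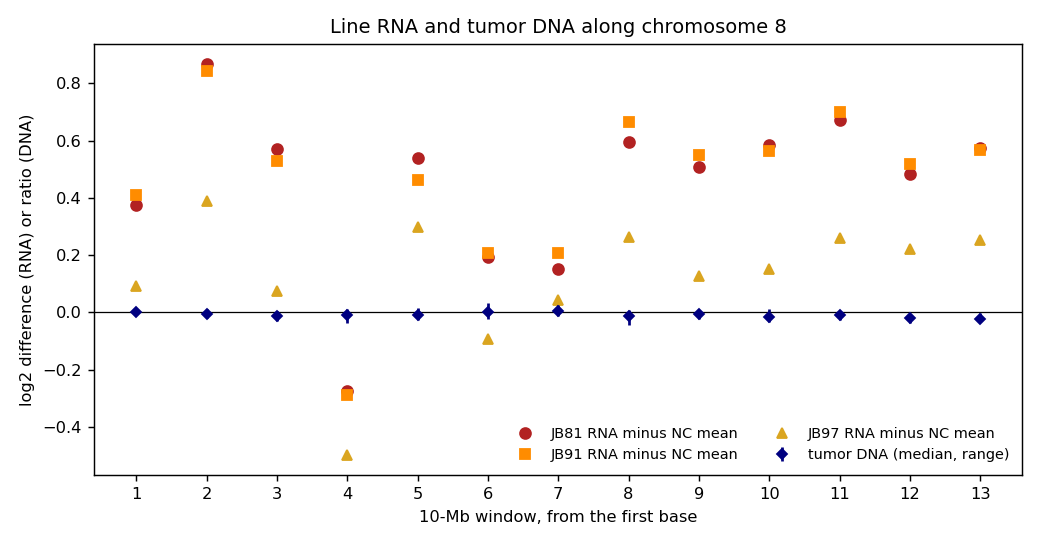
Median log2 RNA difference of each BNC line from the mean of the NC lines, and median log2 DNA ratio of the 14 tumors with bars from the lowest to the highest tumor (vertical axis), in each 10-Mb window of chromosome 8 (horizontal axis). JB81 and JB91 reach 0.87 and 0.84 in window 2, and the DNA stays between -0.045 and 0.033.

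In 5 tumors a code ties an RNA library to the DNA. The 9 tumor libraries mix BNC and NC tumors, and their columns carry no genotype. Over 442 chromosome 8 genes, the median RNA level against each gene's median over the 9 tumor libraries was -0.050 in B2, 0 in B13, 0.11 in B14, 0 in B19, and 0.023 in B28. An exact 0 arises where a library is itself the middle one of the 9 for many genes. The same median over all genes was 0.13 in B14 and -0.026 in B2, so the chromosome moved little apart from the library as a whole. The DNA level of these tumors was -0.010 in B2, -0.0044 in B13, -0.015 in B14, 0.0036 in B19, and -0.011 in B28. Over 14 genes of the low segment of B14, the median RNA level was -0.020 in B14, within the range of the 9 libraries from -0.52 to 0.38. These segment values are not corrected for each library's median over all genes, which was 0.13 in B14.

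Ces1d, a carboxylesterase gene (chr8:93166068-93197838), had 0 counts in B14, the tied tumor without reads over it in DNA. A count of 0 allows up to 3 counts, for counting error only. It was read at 175 CPM in B2, whose DNA mean was -1.0 there, and at 7.23 CPM in B13, 1.06 CPM in B19, and 0.054 CPM in B28, whose DNA was near 0. RNA therefore did not follow the order of the DNA levels among the tumors that had reads, and B28 had 1 count. In the tumor libraries without tied DNA, Ces1d had 0 counts in B45, 5 in B1, 7 in B27, and 40 in the library without a code. A count of 0 was thus not particular to B14. Ces1c (chr8:93099015-93131283) had 33 counts in B2, 11 in B13, 4 in B28, 1 in B19, and 0 in B14. In bulk tumors fewer cells of a type and less RNA per cell cannot be told apart.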

How the data were processed

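Low-coverage DNA sequencing of 14 tumors and RNA sequencing of 9 tumors and 6 cell lines were used. Per the study's methods, the authors aligned single-end reads to mm10 with BWA, counted them in 20-kb bins with an adapted CopywriteR, corrected for GC content and mappability, and calculated log2 ratios to normal tail DNA. The deposited DNA values are log2 values per bin, and whether they were divided by the reference could not be settled. The files do not give the depth behind a bin, which is unknown. The value of bins without reads is a placeholder and was read as missing, and 1 chromosome 8 bin was blank. The authors deposited RNA as raw counts per gene (TopHat2 2.0.12 and HTSeq), with totals from 8158740 to 23936922. Strand settings are not given in the sources used here.

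Each DNA column was centred on its median autosomal bin. Breakpoints were found by least-squares optimal partitioning (penalty 10 times the log of the number of bins times the noise variance, shortest segment 25 bins, values clipped at 4 noise units from a running median of 51 bins), checked on simulated steps. RNA was TMM scaled with edgeR 4.0.16 in R 4.3.3 (prior count 2, mean log2 CPM above 4). Python 3.11.15 and scipy 1.17.1 were used. Lines were assigned by the column heads of a supplementary table. Tests over tumors treat columns as separate samples. Genes named are 33 listed genes, those nearest breakpoints, and those in the intervals described. The Ces1b and Ces1e sequences, and the requirement of at least 2 tumors on each side for an interval, were chosen after their values were seen. The chromosome, members, and gene lists were chosen with earlier results of these data known. Chromatin profiles were not used here.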

Additional observations from a re-analysis of the deposited data

How the results depend on the processing

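Of 84 levels of single tumors under other settings, 80 moved by less than the SD of the tumor's 10-Mb windows, and all lay between -0.025 and 0.010. The exceptions were B2 (-0.020) and B20 (-0.021) with the mean of bins, and B2 (-0.00097) and B31 (-0.0028) with each bin's median over the tumors subtracted. The median over tumors kept its direction but lost significance with the mean autosomal bin as the centre (-0.0020, exact permutation p = 0.155) and with each bin's median subtracted (-0.00057, exact permutation p = 0.989), which by construction removes what all tumors share. Leaving out each tumor gave -0.0103 to -0.0099. Averaging B20 and B21, an alternative chosen after seeing the data, gave -0.010 (exact permutation p = 0.000732). Breakpoints numbered 20 with the penalty at 0.5 of its value, 0 with it doubled, and 2 with each bin's median subtracted. At 0.5 of the penalty, low segments that overlap that of B14 were also found in B20, B21, B23, and B26. The lowest window was -0.074 with 5-Mb windows. The median RNA difference of the windows between BNC and NC lines was 0.39, 0.24 with library size only, and 0.33 to 0.54 leaving out each line.

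The tumor RNA level depended on how genes and libraries were centred, in alternatives chosen after seeing the data. Gene means gave -0.12 in B2, 0.048 in B19, and -0.051 in B13. With the library's median of all genes subtracted, B14 was at -0.024 with gene medians and at -0.027 with gene means, and B13 at -0.042 with gene means. Without B1, the library with the lowest total, B13 was at -0.019. With the planned centring no library stood apart from the other 8 (gap over range 0.440 for B14, limit 0.493). With gene medians and the library's median subtracted, B1 did, at 0.047 (0.545).

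No paired analysis was possible because the DNA columns carry neither a genotype nor a replicate number, so the planned comparison of BNC with NC tumors was not run. The depth behind a bin is unknown, so no counting interval is given.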
